A study of Mus musculus with 4 samples.

Results

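The secreted fibroblast growth factor (FGF) ligands Fgf1, Fgf2, Fgf5, Fgf7, Fgf9, Fgf10, Fgf18 and Fgf22 were followed in cultured mouse prefrontal cortex (PFC). They are 8 of the 18 secreted FGF genes of the mouse and 8 of the 55421 genes listed for each library. The 8 were selected by gene symbol with their levels in CPM, the count divided by the library total and scaled to a fixed depth, in cultures with and without FGF2 already known. Their differences between the cultures are therefore given as a description, and how many pass a threshold is printed only beside the share of all genes that do. The CPM printed below take the total of the tested genes, adjusted by a scaling factor per library (TMM). Both groups came from PFC tissue of wild type (WT) C57BL/6 mice at postnatal day 0 (P0), which was dissociated with papain and grown for 10 days in neurobasal medium with B27 and GlutaMAX. The group called FGF2 received FGF2 protein at 5 ng/mL, and the group called no FGF2 did not. Each group has 2 libraries of total RNA, from whole mixed cultures without any cell sorting. The labels number them B1 and B2, called replicates 1 and 2 here, without naming separate cultures or animals. The methods of the study name technical replicates for bulk samples other than some human ones, without naming the mouse cultures separately. Every SD and adjusted p below may thus cover technical spread only. Neither a vehicle control nor inactivated FGF2 is described, so other components of the reagent cannot be told apart from FGF2.

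FGF ligands are secreted proteins that bind FGF receptor tyrosine kinases together with heparan sulfate chains on the cell surface. The activated receptor signals largely through the RAS and ERK cascade, which in turn raises inhibitors such as the Sprouty proteins. Fgf1 and Fgf2 lack a classical signal peptide and leave the cell by an unconventional route, whereas the other ligands here pass through the secretory pathway. In the brain, FGF2 is best known as a mitogen for neural progenitors and is made mainly by glia. The sequencing counts RNA made by the mouse cells, so the FGF2 protein added to the medium is not itself counted.

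Promoter sequence was found for 7 of the 8 ligands, all but Fgf1, in RefSeq tables of GRCm38.p6, the assembly also called mm10. Those of Fgf2, Fgf9 and Fgf18 are shown because these ligands differed between the cultures in opposite directions. Each run holds the 250 bases before the start that RefSeq gives, 5′ to 3′ on the gene's strand, with every CpG dinucleotide in capitals. The stretches are chr3:37348403-37348652 on the plus strand for Fgf2, chr14:58072436-58072685 on the plus strand for Fgf9 and chr11:33147401-33147650 on the minus strand for Fgf18. The GENCODE M21 gene spans used for exon lengths begin upstream of the RefSeq start for Fgf2 and Fgf9, so these 2 stretches lie inside the spans given for those genes below.
Fgf2: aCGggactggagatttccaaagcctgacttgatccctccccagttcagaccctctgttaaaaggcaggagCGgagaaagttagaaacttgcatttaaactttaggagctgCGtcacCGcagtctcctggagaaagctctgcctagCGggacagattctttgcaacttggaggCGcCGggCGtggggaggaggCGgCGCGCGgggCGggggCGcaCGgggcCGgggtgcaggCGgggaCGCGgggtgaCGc
Fgf9: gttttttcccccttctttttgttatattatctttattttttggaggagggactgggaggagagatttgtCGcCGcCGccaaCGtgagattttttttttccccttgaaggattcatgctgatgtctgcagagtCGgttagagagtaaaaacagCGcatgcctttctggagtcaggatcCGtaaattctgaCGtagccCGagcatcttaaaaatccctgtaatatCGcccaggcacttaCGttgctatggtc
Fgf18: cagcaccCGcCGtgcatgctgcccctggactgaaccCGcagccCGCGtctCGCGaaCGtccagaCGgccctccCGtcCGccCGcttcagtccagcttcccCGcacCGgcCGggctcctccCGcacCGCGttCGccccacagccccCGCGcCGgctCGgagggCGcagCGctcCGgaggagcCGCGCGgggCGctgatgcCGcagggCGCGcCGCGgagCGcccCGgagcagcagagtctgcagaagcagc
The printed stretch held 20 CpG dinucleotides for Fgf2, 11 for Fgf9 and 37 for Fgf18. Over 300 bases, which add 50 bases after the start, GC content was 62.7% for Fgf2, 42.7% for Fgf9 and 78.7% for Fgf18, with a median of 52.7% over 32851 promoters. The ratio of observed to expected CpG was above the median of all promoters (0.384) for each of the 7 ligands. It ranged from 0.395 for Fgf10 to 1.02 for Fgf18. The letters GCGGGGGCG, bound by the ERK-inducible EGR factors, were searched on both strands and were present in 2.91% of all promoters. Among the 7 ligands they were present for Fgf2, from 47 to 39 bases before the start. This match overlaps the letters GGGCGG, the GC box, which 35.7% of all promoters and 5 of the 7 ligand promoters held. The ETS core CCGGAA and the TATA motif TATAAA, at 14.9% and 13.6% of all promoters, were each present for Fgf5 among the 7. The AP-1 letters TGAGTCA (5.20% of all promoters) and the E-box CACGTG (7.15%) were present in none of the 7 stretches. A match here describes letters and does not show that a factor binds.

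Gene counts totalled between 9166432 and 10799886 per library, and between 43.2% and 45.9% of the tallied read pairs lay in no annotated feature. Across 17144 tested genes, 40.5% had an adjusted p under 0.05 in the edgeR quasi-likelihood test, with Benjamini-Hochberg adjustment. They divide into 20.7% that were higher and 19.9% that were lower in the treated cultures. The libraries of the 2 groups did not overlap for 67.1% of tested genes, with the treated ones above for 33.6% and below for 33.4%. Of the 8 ligands, 5 passed the filter on low counts, and Fgf5, Fgf7 and Fgf22 did not. Beside these shares, 4 of the 8 ligands were past the same threshold, 1 higher and 3 lower with FGF2, from which nothing is read because the ligands were chosen on this contrast. The same count was 2 of 8 with DESeq2, which called 23.2% of the genes it gave an adjusted p.

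Fgf2, the gene of the same factor that was added to the medium, was the ligand with the higher RNA level in the treated cultures. It had 526 and 586 counts in the treated libraries and 78 and 82 in the untreated ones. Scaled to library size these were 58.0 and 59.6 CPM against 7.42 and 7.57 CPM. Both treated libraries lay far above both untreated ones, and the 2 libraries within each group were close. The means were 58.8 ± 1.14 CPM with FGF2 and 7.50 ± 0.106 CPM without FGF2 (SD, n = 2). The fitted log2 fold change was 2.97 with a standard error of 0.13, a 7.83-fold higher level. A log2 fold change above 1 was found for 5.77% of tested genes, and 96 genes had a larger one than Fgf2. In bulk RNA, more cells that make Fgf2 and more Fgf2 RNA per cell cannot be told apart, and the same holds for every level below.

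Fgf1, the closest relative of Fgf2 and a ligand able to activate all FGF receptors, showed the opposite difference. Its counts were 291 and 316 in the treated libraries and 927 and 967 in the untreated ones. In CPM, both treated libraries stood at 32.1 and the untreated ones at 88.2 and 89.3. The groups did not overlap, as for 67.1% of tested genes, and 2 libraries per group give only a rough measure of spread. The means were 32.1 ± 0.0418 CPM with FGF2 and 88.8 ± 0.770 CPM without FGF2 (SD, n = 2). The fit gave a log2 fold change of -1.47 with a standard error of 0.09, so the level was 2.76-fold lower in the treated cultures. A log2 fold change below -1 was found for 2.97% of tested genes, and 159 genes had a lower one than Fgf1.

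**Figure D1:**
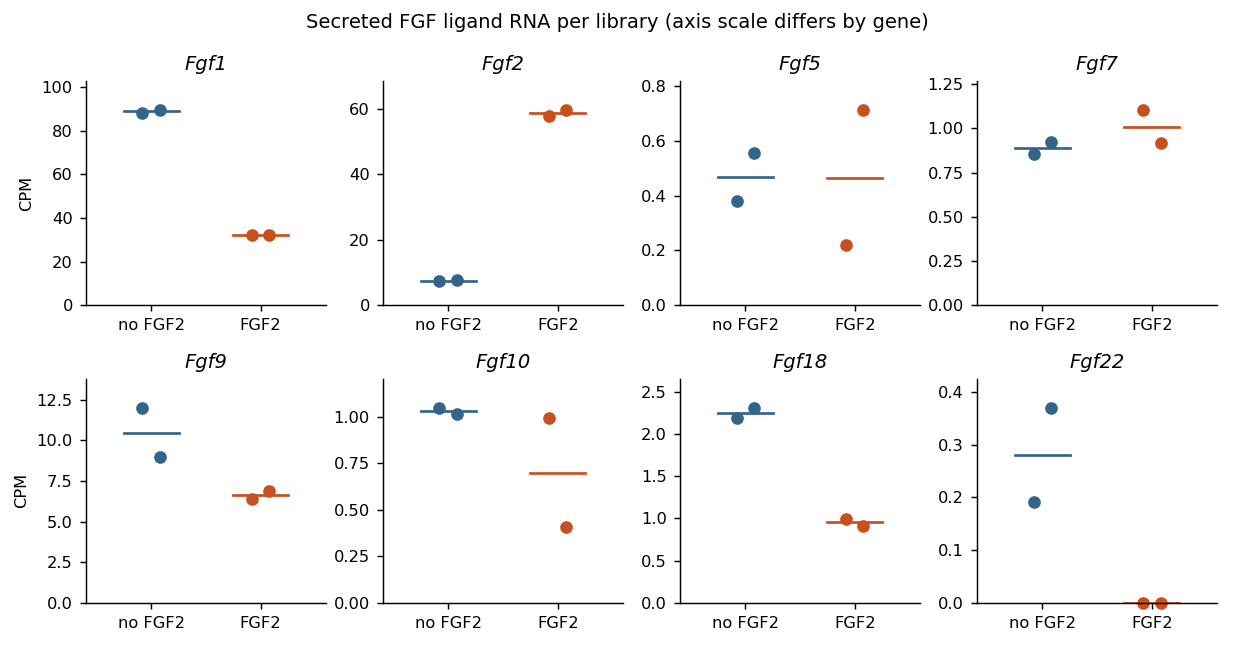
Level of each secreted FGF ligand in CPM (vertical axis from 0, scaled per gene) in the no FGF2 and FGF2 cultures. Points are single libraries and lines are means of 2 libraries. Fgf2 is higher and Fgf1 is lower in both FGF2 libraries, whereas the libraries of Fgf5 and Fgf7 overlap.

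Fgf9, a ligand of neurons and glia that acts on glial progenitors, had 58 and 68 counts with FGF2 and 126 and 97 counts without FGF2. Its levels were 6.39 and 6.91 CPM against 11.99 and 8.96 CPM. The treated libraries were the lower ones, but the untreated libraries differed from each other by more than the gap between the nearest libraries of the groups. The log2 fold change was -0.65 with a standard error of 0.21. It was -0.43 without no FGF2 replicate 1, the highest library. Fgf18, a member of the FGF8 subfamily, was lower as well, with 9 and 9 counts against 23 and 25. These correspond to 0.992 and 0.915 CPM with FGF2 and 2.19 and 2.31 CPM without FGF2. The groups of Fgf18 were apart, with a log2 fold change of -1.23 and a standard error of 0.51. At 9 counts each, the treated libraries of Fgf18 were as near the limit of detection as those of Fgf7 below.

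The other ligands were near the limit of detection. The FGF7 subfamily signals from mesenchyme to epithelium in many organs, and Fgf7 and Fgf22 also act as presynaptic organizers at brain synapses. Fgf7 had 10 and 9 counts with FGF2 and 9 and 10 counts without FGF2. No difference was detectable for Fgf7 at this depth, with a log2 fold change of 0.18 and a standard error of 0.65 in a fit without the filter. Fgf10, a relative of Fgf7, had 9 and 4 counts against 11 and 11. Its log2 fold change of -0.57 had a standard error of 0.65 and rested on FGF2 replicate 2, without which it was -0.06, while it was -1.32 without FGF2 replicate 1. Fgf22 had 0 counts in both treated libraries and 2 and 4 counts in the untreated ones. A count of 0 still allows up to 3 counts, so no fold is given for Fgf22. Scaled by the total of all gene counts, 3 counts are 0.327 and 0.303 CPM in these libraries. Fgf5, a regulator of the hair cycle, had 2 and 7 counts in the treated and 4 and 6 in the untreated libraries, so the groups overlap. Its log2 fold change was 0.02 with a standard error of 0.96 in a fit without the filter.

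None of the 10 secreted FGF genes outside the list of 8 passed the filter. Of these, 3 had no count in any library, namely Fgf4, Fgf6 and Fgf20. The highest count of any of the 10 was 12, for Fgf17 in no FGF2 replicate 2. Fgf8, the patterning ligand of the rostral forebrain, had 1 and 4 counts in the treated libraries and 0 in both untreated ones. The endocrine ligands Fgf15, Fgf21 and Fgf23 had 8 and 1 counts in sum in the treated libraries and 5 and 6 in the untreated ones. By subfamily, Fgf1 and Fgf2 together had 817 and 902 counts against 1005 and 1049. The FGF9 subfamily followed with 59 and 68 against 127 and 97 counts, nearly all of them from Fgf9. The FGF8 subfamily had 13 and 19 against 25 and 37 counts, the FGF7 subfamily 19 and 14 against 23 and 26, and the FGF4 subfamily 2 and 7 against 4 and 6.

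To compare ligands with each other, CPM were divided by the exon length of each gene in kb, which gives RPKM. With FGF2 the order was Fgf2 at 8.67 ± 0.168 RPKM, Fgf1 at 5.88 ± 0.00766, Fgf9 at 1.43 ± 0.0794 and Fgf18 at 0.803 ± 0.0457 (SD, n = 2). Fgf7, Fgf5 and Fgf10 came next, between 0.311 and 0.152 RPKM, with overlapping libraries between neighbours. Without FGF2 the order was Fgf1 at 16.3 ± 0.141 RPKM, Fgf9 at 2.25 ± 0.461, Fgf18 at 1.89 ± 0.0715 and Fgf2 at 1.11 ± 0.0157 (SD, n = 2). Here Fgf9 and Fgf18 did not differ beyond their spread, and Fgf10, Fgf5 and Fgf22 could not be ordered either. Fgf2 thus stood at rank 1 with FGF2 and at rank 4 without it. In RPKM, Fgf2 was 1.46 and 1.49 times Fgf1 in the treated libraries, and Fgf1 was 14.8 and 14.6 times Fgf2 in the untreated ones. Fgf2 made up 49.7% ± 0.344 of the summed RPKM of the 8 ligands with FGF2 and 4.96% ± 0.0964 without FGF2 (SD, n = 2). For Fgf1 the shares were 33.7% ± 0.377 and 72.8% ± 1.02. The sum over the 8 was 17.3 and 17.6 RPKM with FGF2 and 22.4 and 22.2 RPKM without FGF2, so it differed far less than its makeup. These RPKM depend on which exons are used, and the Fgf2 to Fgf1 ratio keeps its direction in each group when the longest transcript is taken as the length.

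**Figure D2:**
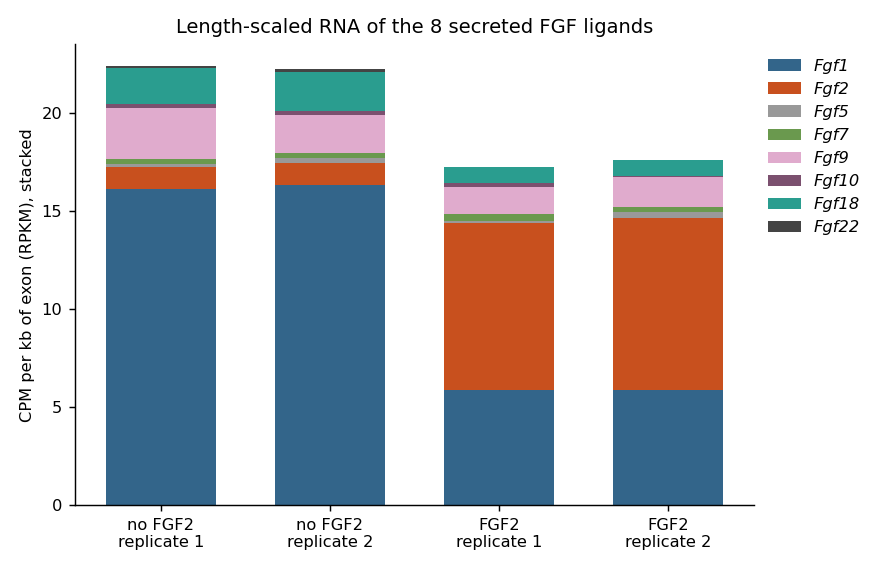
Stacked RPKM (CPM per kb of exon, axis from 0) of the 8 ligands in each of the 4 libraries. Fgf1 takes the largest part of both no FGF2 bars and Fgf2 the largest part of both FGF2 bars, and the summed height is 22.4 and 22.2 without FGF2 against 17.3 and 17.6 with FGF2.

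**Figure D3:**
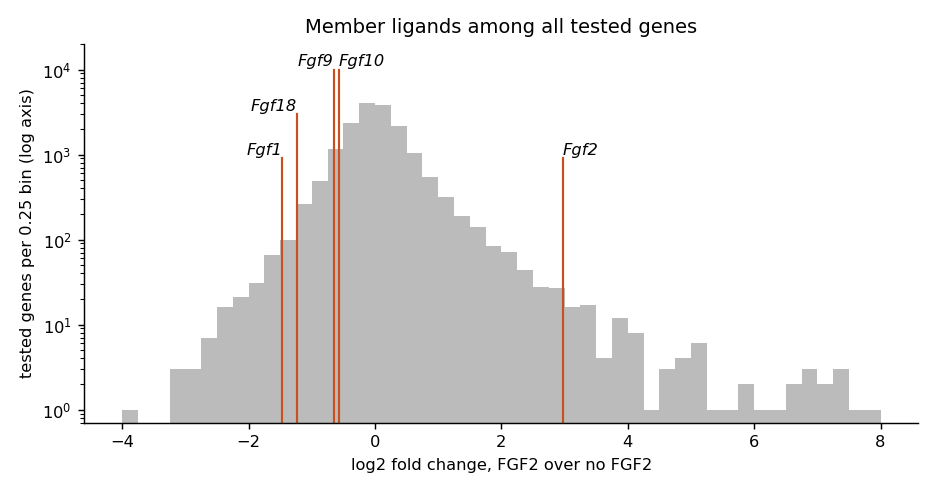
Number of tested genes (log axis) by log2 fold change, FGF2 over no FGF2, in bins of 0.25. Vertical lines mark the 5 ligands that passed the filter on low counts, with Fgf2 at 2.97 on the right and Fgf1, Fgf18, Fgf9 and Fgf10 between -1.47 and -0.57 on the left.

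Reads of overlapping genes bear on these counts. Fgf2 (ENSMUSG00000037225) lies on chromosome 3 from 37348346 to 37410108 (mm10, plus strand). Its 3′ end overlaps Nudt6, a Nudix hydrolase gene on the other strand, over 640 bases of exon or 9.44% of the exon length of Fgf2. Nudt6 had 37 and 23 counts with FGF2 and 23 and 18 counts without FGF2, far below Fgf2 in the treated libraries. Its log2 fold change was 0.73 (standard error 0.40, edgeR adjusted p = 0.14), and it passed only without FGF2 replicate 2 (1.08, adjusted p = 0.039). The strand setting of the counting was read from the values. A count was present for 4 of 669 genes that lie at least 98% within the exons of a same-strand gene, compared with 164 of 477 that lie within exons of the opposite strand. Genes within exons of the opposite strand could thus still be counted, which is the pattern of counting by strand. On the same strand, Gm43439 shares 255 bases with Fgf2 and had 0 counts in every library. Fgf1 (ENSMUSG00000036585) lies on chromosome 18 from 38838673 to 38929472 on the minus strand, and its exons overlap no exon of another gene. Exons of Fgf22 share 82 bases (3.65% of its exon length) with Rnf126 on the other strand, which had between 337 and 528 counts per library. Whether reads of Rnf126 entered the few counts of Fgf22 was not tested. Exons of Fgf10 share 123 bases with Gm16263 on the other strand, which had at most 1 count in a library. Apart from these overlaps, near copies in other genes (alignments of 100 bases or more, 95% identity or more) were found for Fgf9 (106 bases shared with Naa16) and Fgf10 (up to 103 bases), and for none of Fgf1, Fgf5, Fgf7, Fgf18 and Fgf22. Fgf9 (ENSMUSG00000021974) lies on chromosome 14 from 58070547 to 58112720, Fgf18 (ENSMUSG00000057967) on chromosome 11 from 33117430 to 33147400, Fgf7 (ENSMUSG00000027208) on chromosome 2 from 126034658 to 126091185, Fgf10 (ENSMUSG00000021732) on chromosome 13 from 118669791 to 118792115, Fgf5 (ENSMUSG00000029337) on chromosome 5 from 98254184 to 98277030 and Fgf22 (ENSMUSG00000020327) on chromosome 10 from 79755076 to 79758596.

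The other FGF genes were listed with the receptors, export partners, heparan sulfate genes, adaptors, feedback inhibitors and ETS factors of the pathway and with Nudt6, 76 genes in all, of which 60 passed the filter. At the edgeR threshold, 25 of these rose and 13 fell with FGF2, which is 38 of 60 beside the background of 40.5%. Their median log2 fold change was 0.14, and that of all tested genes was -0.00082. With DESeq2, 14 rose and 8 fell. Names and adjusted p below refer to the edgeR test, with Benjamini-Hochberg adjustment over all tested genes. The counts per list below stand beside 20.7% of all tested genes higher and 19.9% lower with FGF2 in that test.

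Among the receptors, Fgfr1, the main receptor of cortical progenitors, rose from 258 ± 1.43 to 426 ± 16.9 CPM (SD, n = 2) with FGF2, a rise of 0.72 on the log2 scale (edgeR adjusted p = 3.2e-65). Fgfrl1, a receptor-like protein without a kinase domain, rose by 0.84 (edgeR adjusted p = 1.9e-19). Fgfr3, an astrocyte receptor, fell by 0.44 on the log2 scale (edgeR adjusted p = 1.5e-06). Fgfr2 did not pass, with a log2 fold change of -0.01 and a standard error of 0.06 (0.02 without no FGF2 replicate 1). Fgfr4 had at most 1 count in a library, and the klotho coreceptors Kl and Klb did not pass the filter. Per length, Fgfr1 was the highest receptor in both groups, at 43.1 RPKM with FGF2 and 26.1 RPKM without FGF2. Of the carrier proteins that release FGFs from the matrix, Fgfbp1 had 0 counts and Fgfbp3 had between 18 and 32 counts. The log2 fold change of Fgfbp3 was 0.17 with a standard error of 0.40, and it was -0.24 without FGF2 replicate 2 and -0.07 without no FGF2 replicate 2.

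Genes that help Fgf1 and Fgf2 leave the cell went both ways, with 2 of 6 higher and 2 lower. Of the partners of Fgf1, Syt1, which is also a neuronal vesicle protein, fell by 0.48 (edgeR adjusted p = 1.6e-32), and Anxa2 rose by 0.47 (edgeR adjusted p = 3.4e-07). S100a13, another partner of Fgf1, had 92 and 59 counts in the treated libraries and 45 and 65 in the untreated ones. It passed at 0.64 on the log2 scale (edgeR adjusted p = 0.020) but not with DESeq2 (adjusted p = 0.28), and it was 0.22 without FGF2 replicate 1 and 0.41 without no FGF2 replicate 1, where it did not pass either. Of the partners of Fgf2, the kinase Tec did not pass, with a log2 fold change of -0.03 and a standard error of 0.41. Gpc1, a glypican, fell by 0.38 (edgeR adjusted p = 3.6e-07).

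Heparan sulfate proteoglycans hold FGFs at the cell surface, and 5 of the 12 core proteins rose while 3 fell. Sdc4 rose by 0.81 (edgeR adjusted p = 1.4e-58), Hspg2, the basement membrane protein perlecan, rose by 0.64 (edgeR adjusted p = 2.9e-11) and Agrn, agrin, rose by 0.47 (edgeR adjusted p = 2.9e-32). Sdc1 fell by 0.53 (edgeR adjusted p = 0.038), which did not pass with DESeq2 (adjusted p = 0.29), without the filter or with any 1 library left out, where it lay between -0.63 and -0.43. Of 11 tested enzymes that build or trim heparan sulfate, 4 rose and 4 fell. Sulf1, a sulfatase that removes the 6-O-sulfates used by FGF receptor complexes, rose by 0.93 (edgeR adjusted p = 8.1e-07), and Ndst1, which starts sulfation, rose by 0.30 (edgeR adjusted p = 7.3e-12). The sulfotransferase Hs3st1 fell by 0.80 (edgeR adjusted p = 7.0e-07). Hs6st3 fell by 0.56 (edgeR adjusted p = 0.0050), which did not pass with DESeq2 (adjusted p = 0.14) or without FGF2 replicate 2 (-0.43, adjusted p = 0.095).

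Downstream of the receptors, 7 of 10 tested feedback inhibitors rose and none fell. Spry4, a Sprouty inhibitor of RAS activation, rose from 15.0 ± 0.914 to 30.8 ± 0.485 CPM (SD, n = 2), a rise of 1.04 on the log2 scale (edgeR adjusted p = 1.8e-14). Spry1 rose by 0.85 and Dusp6, an ERK phosphatase, rose by 0.48 (edgeR adjusted p = 0.0030 and 0.0026), and both missed the threshold with DESeq2 (adjusted p = 0.0999 and 0.10). Spred1 rose by 0.41 (edgeR adjusted p = 1.2e-12). Of 9 receptor adaptors, 3 rose and none fell. Shc1 rose by 0.68 and Gab1 by 0.66 (edgeR adjusted p = 1.4e-09 and 3.5e-31), while Ptpn11, at 0.15 (edgeR adjusted p = 0.013), no longer passed with DESeq2 (0.16), without FGF2 replicate 1 (0.10, adjusted p = 0.19) or without no FGF2 replicate 1 (0.12, adjusted p = 0.25). The ETS factors of the pathway were split. Etv5 rose by 0.47 (edgeR adjusted p = 1.1e-12), and Etv4 fell by 0.63 (edgeR adjusted p = 0.0030). The call of Etv4 was lost with DESeq2 (adjusted p = 0.11), without FGF2 replicate 2 (-0.48, adjusted p = 0.073) and without no FGF2 replicate 1 (-0.53, adjusted p = 0.088). Etv1, at 0.17 (edgeR adjusted p = 0.028), was lost with DESeq2 (adjusted p = 0.22), with total count scaling (0.15, adjusted p = 0.053) and with any 1 library left out, between 0.13 and 0.20.

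The intracellular FGF homologous factors share the fold of the ligands but stay in the cell and bind sodium channels of neurons. Of these 4 genes, 3 fell and none rose. Fgf12 fell by 0.49 (edgeR adjusted p = 1.9e-11) and Fgf13 fell by 0.25 (edgeR adjusted p = 0.0010). Fgf11 fell by 0.33 (edgeR adjusted p = 0.013), which did not pass with DESeq2 (adjusted p = 0.17) or without no FGF2 replicate 1 (-0.30, adjusted p = 0.12). Fgf14 did not pass, at -0.27 on the log2 scale (edgeR adjusted p = 0.072).

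**Figure D4:**
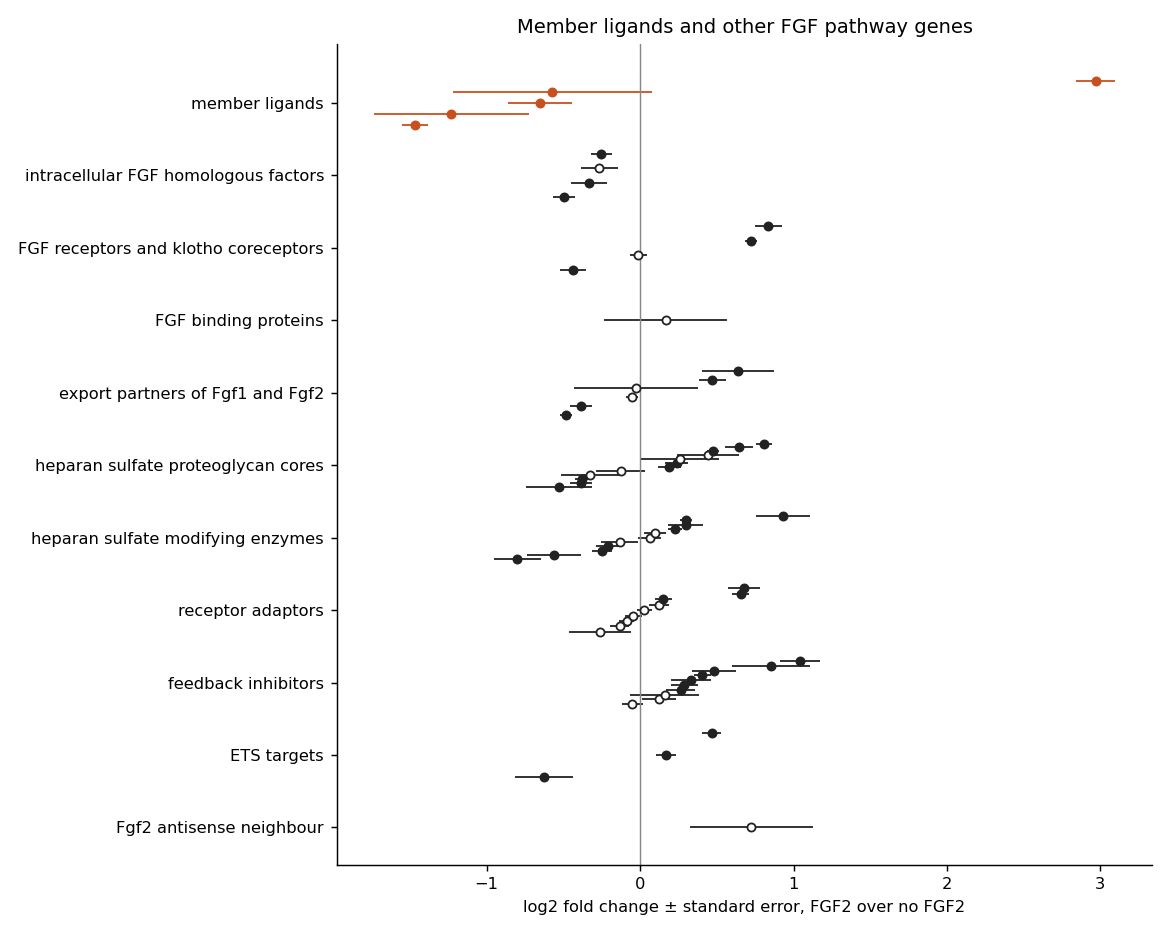
Fitted log2 fold change (FGF2 over no FGF2) with its standard error for the 5 ligands that passed the filter and for the other FGF pathway genes, by role. In the other rows, filled points passed an edgeR adjusted p of 0.05 and open points did not; the ligands are shown without a test. Fgf2 lies at 2.97, while the other rows stay between -0.80 and 1.04.

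The pattern of each ligand over the 4 libraries was compared with 12644 genes of at least 5 CPM, by the root mean square difference of log2 CPM after centring each gene on its own mean. With 4 libraries in 2 groups, likeness mainly reflects a similar fold. Among the genes nearest to Fgf2 were Bcas1 (0.059), which marks newly formed oligodendrocytes, and Plxnb3 (0.062), a plexin receptor. Their log2 fold changes were 2.92 and 3.00. Nearest to Fgf1 were Pbk, a mitotic kinase (0.046), and Sst, the interneuron peptide somatostatin (0.057), with log2 fold changes of -1.52 and -1.57. Nearest to Fgf9 were Dnase1l2 (0.034) and Mastl (0.043).

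Markers of several cell types moved with the same comparison. The summed level of 8 oligodendrocyte lineage markers was 1512 and 1534 CPM with FGF2 and 478 and 494 CPM without FGF2. Of these markers 7 were tested and all 7 rose, including Sox10 by 2.41 (edgeR adjusted p = 3.2e-185), and Mog had at most 4 counts in a library. The 8 astrocyte markers summed to 12460 and 12342 CPM with FGF2 and 7546 and 7498 CPM without FGF2, with 7 higher and none lower. Gfap rose by 1.06 and Aqp4 by 0.78 (edgeR adjusted p = 4.7e-301 and 2.1e-127). The 8 pan-neuronal markers summed to 2648 and 2674 CPM against 3611 and 3586 CPM, with 6 lower and 1 higher. Tubb3 fell by 1.10 (edgeR adjusted p = 9.4e-144). All 6 proliferation markers were tested and 5 fell, and of 6 neural progenitor markers 3 rose and 2 fell. The summed levels were 192 and 195 against 257 and 254 CPM for proliferation, and 2106 and 2113 against 1267 and 1322 CPM for progenitors. The progenitor sum rests on Vim, an intermediate filament gene also expressed by astrocytes, and the other 5 markers summed to 526 and 543 against 603 and 638 CPM, the opposite direction. Microglial markers summed to 34.5 and 37.6 CPM with FGF2 and 22.7 and 22.7 CPM without FGF2, with 3 of 5 tested markers higher. The 10 meningeal fibroblast and mural markers summed to 69.8 and 65.8 against 55.4 and 56.1 CPM, with 2 of 8 tested genes higher and 2 lower. That sum rests on the mural marker Pdgfrb, and the other 9 summed to 20.6 and 19.2 against 26.7 and 27.2 CPM. The collagen genes Col1a1 and Col1a2 fell by 2.18 and 1.73 (edgeR adjusted p = 6.0e-12 and 1.2e-05). Endothelial markers summed to 9.92 and 7.73 CPM with FGF2 and 4.95 and 8.50 CPM without FGF2. Cldn5 had 0 counts in every library. Of 3 tested endothelial markers, Flt1 rose by 2.71 and Kdr fell by 0.95 (edgeR adjusted p = 1.1e-08 and 0.048). Without Flt1 the other 5 summed to 4.19 and 4.07 against 4.38 and 7.67 CPM. The part of these markers in the ligand levels was not tested.

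**Figure D5:**
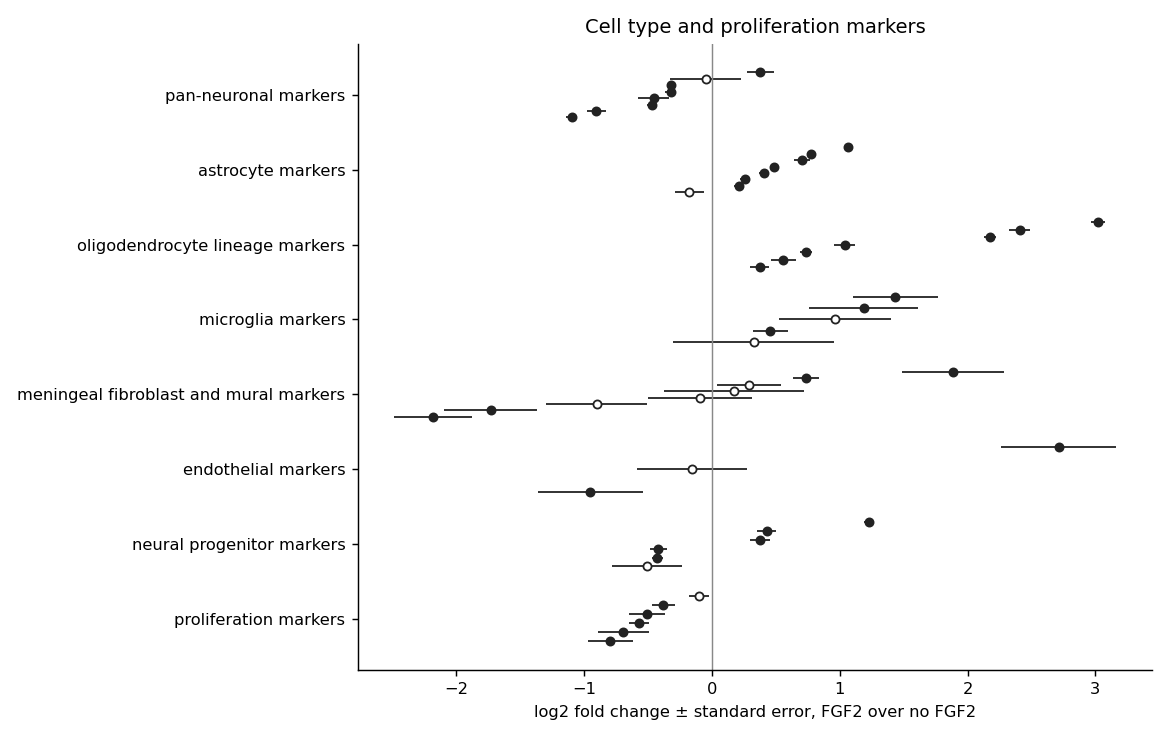
Fitted log2 fold change (FGF2 over no FGF2) with its standard error for each tested cell type or proliferation marker, by list. Filled points passed an edgeR adjusted p of 0.05. All 7 tested oligodendrocyte lineage markers and 7 of 8 astrocyte markers lie to the right of 0, and all 6 proliferation markers lie to the left.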

How the data were processed

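Per the labels and the methods of the study, the authors mapped reads to mm10 with HISAT2 2.1.0, kept mapped reads of high quality with Samtools and counted them per gene with HTSeq 0.11.2. The deposited values are raw counts per gene and library. The annotation release and strand setting of the counting are not given in the sources used here. Such a filter would remove reads that map equally well to copies. The 5 tally lines that name no gene (44.9% to 47.3% of read pairs) were left out.

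Of 55421 genes, 55240 matched GENCODE M21 (mm10) by identifier. Counts were fitted in R 4.3.3 with edgeR 4.0.16, by its quasi-likelihood test (TMM factors 0.992 to 1.01, expression filter by group, robust, adjusted p threshold 0.05). DESeq2 1.42.0, other scalings and filters, a replicate block and leaving out each library were alternatives. The fits were tested on simulated data. Copies were sought with BLAST 2.17.0. Replicates differed by more than sampling noise (chi-square per degree of freedom 2.28 with FGF2 and 1.76 without FGF2).

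The ligands, lists and rules were chosen with earlier results of these data known. From each pathway list, up to 4 genes past the threshold with at least 5 CPM and the largest log2 fold changes were named, with Fgfr1, Fgfr2, Fgfr3, Nudt6 and Fgfbp3. Genes given for their counts or for not passing, the single markers named and the 3 promoters shown were picked, and marker sums without the highest gene added, after the data were seen. For each ligand of at least 5 CPM, the genes of nearest pattern were named (3 for Fgf2, 2 for the others). Some genes that these rules name are not reported here.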

Additional observations from a re-analysis of the deposited data

How the results depend on the processing

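The opposite differences of Fgf2 and Fgf1 held under every alternative run. Leaving out any 1 library gave log2 fold changes between 2.95 and 2.98 for Fgf2, -1.48 and -1.46 for Fgf1, -0.85 and -0.43 for Fgf9, -1.32 and -0.06 for Fgf10, and -1.29 and -1.17 for Fgf18. Fgf1 was at -1.49 with total count scaling and at -1.48 without no FGF2 replicate 1, and Fgf18 was at -1.09 with a prior count of 2. All lay further from the value reported than the SDs of log2 CPM in the 2 groups, combined as the root of their summed squares. These combined SDs, from 2 libraries per group, were only 0.013 for Fgf1 and 0.091 for Fgf18. The standard errors of the fit were larger, at 0.09 and 0.51, and the shifts lay within them. On the log2 scale the RPKM ratio of Fgf2 to Fgf1 was 0.56 with FGF2 and -3.88 without FGF2, and with the longest transcript as length 0.29 and -4.15. Leaving out a library of the group gave 0.54 to 0.58 and -3.88 to -3.87.

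With DESeq2, 4007 genes passed (2068 higher, 1939 lower) in place of 6949 (3541 and 3408). The DESeq2 calls held 14 higher and 8 lower pathway genes and 2 of the 8 ligands, Fgf1 and Fgf2. Neither Fgf9 nor Fgf18 passed with DESeq2. With a library left out, 2 to 3 ligands, 17 to 25 higher and 8 to 12 lower pathway genes passed. Fgf18 no longer passed without any 1 library or without the filter, and Fgf9 no longer passed without no FGF2 replicate 1. The other scalings and filters kept the counts of all genes, ligands and pathway genes past the threshold within 1.5 times. Of 31 named pathway genes, 22 kept direction and side of the threshold under the scalings, filters and DESeq2, and 19 did so also with a library left out. Leaving out a library gave -0.051 to 0.019 for Fgfr2, above 0 without no FGF2 replicate 1, and -0.24 to 0.47 for Fgfbp3, with -0.24 and -0.07 without replicate 2 of the FGF2 and no FGF2 groups.

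The labels give both groups the numbers 1 and 2. Over tested genes, the deviations of same-numbered libraries had a correlation of 1.3e-05, so no shift shared by number was visible. This value cannot show whether same-numbered libraries share an animal or a culture. With the replicate block 6814 genes passed, with 4 of the 8 ligands as before. Depth limits Fgf5, Fgf7, Fgf10 and Fgf22, which had at most 11 counts in any library. It also limits Fgf18, with 9 counts in both treated libraries and 23 and 25 in the untreated ones. Fgf18 was not tested when every library needed at least 10 counts.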
